A study of Mus musculus with 4 samples.

Results

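The genes examined here license replication origins, fire them and copy the DNA. They were chosen by name as a list of 46 symbols: the MCM helicase, the origin recognition complex (ORC), the loading factors Cdc6 and Cdt1 and their brake Gmnn, the firing factors, the GINS complex, the sliding clamp and its loader (RFC), the replicative polymerases and primase, the single-strand binding protein RPA, Okazaki fragment enzymes and nucleotide supply enzymes. Of the 46 symbols 32 had a row among the 22883 gene models of the table, and each had a single row. The 14 symbols without a row were Mcm3, Mcm7, Orc3, Orc4, Orc5, Gins2, Rfc4, Prim2, Pold2, Rpa1, Lig1, Rrm1, Tk1 and Dut, and these are not analysed here.

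RNA was sequenced from V6.5 mouse embryonic stem cells in clones with a conditional knockout of Exosc3, which encodes part of the RNA exosome, a complex that degrades and trims many RNAs from their 3′ end. Exosc3-depleted cells had been without doxycycline for 3 days (dox-), and Exosc3-present cells were kept in 0.1 µg/ml doxycycline (dox+), with 2 libraries in each group. All 4 libraries carried the same conditional knockout genotype and were grown without feeder cells, so that doxycycline and Exosc3 changed together and their effects cannot be told apart. The labels do not say how many clones were used or whether replicates were separate cultures, so p-values measure only the spread between these samples.

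Origins are licensed in G1 phase, when ORC, Cdc6 and Cdt1 load the MCM ring onto DNA, and geminin, the product of Gmnn, binds Cdt1 to prevent a further round of loading. In S phase the kinase made of Cdc7 and Dbf4, together with Mcm10 and GINS, turns loaded rings into active helicases. Polymerase alpha and primase then start each strand, RFC loads the PCNA clamp, and polymerases delta and epsilon extend. Many of these genes are known targets of E2F transcription factors, and mouse embryonic stem cells spend a large share of their short cycle in S phase.

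Exosc3 itself stood at 0.635 and 0.691 FPKM in Exosc3-depleted cells, against 24.2 and 23.2 FPKM in Exosc3-present cells, as the labels state. FPKM counts fragments per gene model, scaled by model length and library total. The library totals recovered from the values were 38095698 and 41968325 fragments in the Exosc3-depleted libraries, against 60851774 and 55233386 fragments in the Exosc3-present libraries. Of these totals 42.4% and 44.0% lay in listed gene models in Exosc3-depleted cells, against 49.7% and 51.8% in Exosc3-present cells. Of 8 embryonic stem cell markers 6 had a row, each between 24.7 and 1360 FPKM in the Exosc3-depleted libraries and between 80.8 and 2230 FPKM in the Exosc3-present libraries. Of 10 fibroblast markers, Postn, Lum and Dcn were listed at 0 in all 4 libraries, and the highest, Mmp2, reached 9.2 FPKM in Exosc3-depleted replicate 1. Of the 6 measured stem cell markers 4 fell and 0 rose, while 30.1% of all tested rows fell and 12.6% rose. The 4 were Esrrb (log2 -1.32), Tdgf1 (-1.6), Zfp42 (-1.51) and Dppa5a (-1.07). Pou5f1 (log2 -0.39) and Utf1 (-0.22) did not pass, and Sox2 and Nanog had no row. Of 5 tested fibroblast markers 3 rose (Twist1, Mmp2 and Pdgfra) and Thy1 fell. Only 1 fibroblast marker rose with either stricter filter on low values. Twist1, Pdgfra and Thy1 passed the filter only through the group in which they were high, so these calls follow in part from the filter. Col1a1 also passed the filter only through the Exosc3-depleted group, with means of 0.771 FPKM there and 0.438 FPKM in Exosc3-present cells. Its log2 fold change was 0.42 and did not pass the threshold. The 5 tested fibroblast markers summed to 12.4 and 9.72 FPKM in Exosc3-depleted cells, against 6.74 and 7.4 FPKM in Exosc3-present cells. These sums cover only genes that passed the filter, so they also follow in part from it. Of these sums Mmp2 alone held 9.2 and 7.15 FPKM in Exosc3-depleted cells, against 3.42 and 4.33 FPKM in Exosc3-present cells. The 6 measured stem cell markers summed to 1960 and 1290 FPKM in Exosc3-depleted cells, against 3080 and 3080 FPKM in Exosc3-present cells. The part of these markers in the results on replication genes was not tested. The median tested row had a log2 fold change of -0.27, so the median change of the replication genes is also given relative to it. Values of single genes are given without that subtraction. All log2 fold changes are Exosc3-depleted minus Exosc3-present on the log2(FPKM + 0.5) scale, which understates changes of low genes.

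Replication genes were lower in Exosc3-depleted cells in nearly every complex. Of the 32 measured genes 24 fell and 0 rose at a limma adjusted p under 0.05, while 30.1% of all 9336 tested rows fell and 12.6% rose, so that 42.7% changed. Without adjustment 28 were lower and 0 higher at p under 0.05, when 4801 of all 9336 rows were under 0.05 in either direction. With limma-voom on recovered fragments 18 were lower and 0 higher, when 19.6% of all rows were called lower. The 32 genes had a median log2 fold change of -0.95, which is -0.68 once the median row is subtracted, and their levels in Exosc3-depleted cells had a median of 50.7% of those in Exosc3-present cells. In 30 of the 32 genes both Exosc3-depleted libraries lay below both Exosc3-present libraries, compared with 50.9% of all tested rows; Orc2 and Pola1 overlapped. In 0 genes were both Exosc3-depleted libraries above both Exosc3-present libraries, as 22.2% of all rows were. The fold change was negative in 31 of the 32 genes and in 66.6% of all rows. In bulk RNA, fewer cells in S phase and less of each RNA per cell cannot be told apart.

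**Figure D1:**
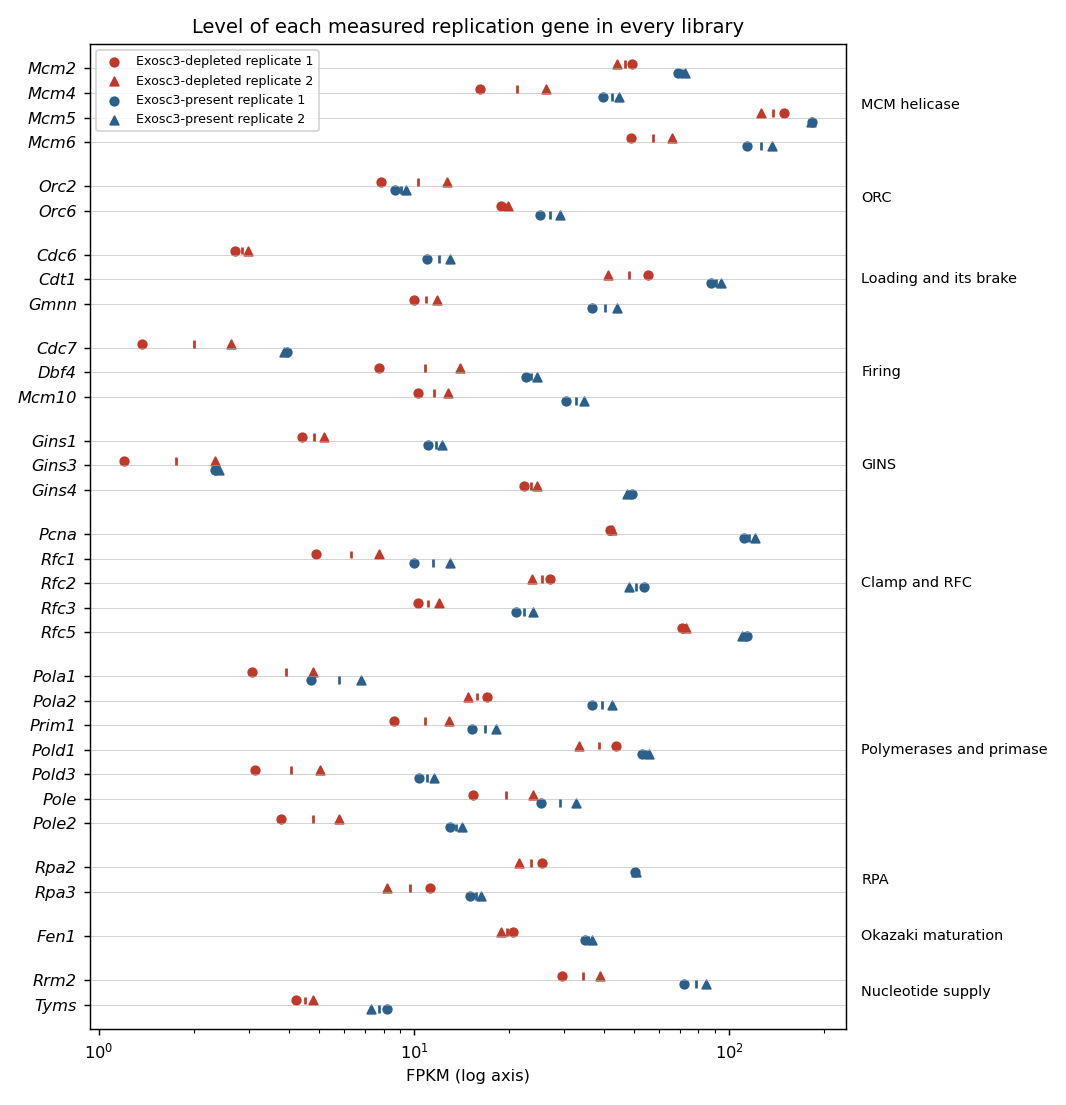
FPKM (log axis) of the 32 measured replication genes in each library, by complex; red symbols are Exosc3-depleted, blue symbols Exosc3-present, circles and triangles replicates 1 and 2, and short bars the group means. The red symbols lie left of the blue ones for 30 genes, and the colours overlap for Orc2 and Pola1.

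Promoter sequences of the genes are shown here because E2F factors act there, and because genes that fell and genes that did not pass carried the same letters. RefSeq promoter windows (GRCm38.p6, 250 bases before to 50 after the start) matched 26 of the 32 measured genes; Mcm4, Gmnn, Gins1, Gins4, Rfc2 and Pole had no entry. The 8-letter E2F-type words TTTCCCGC and TTTGGCGC were searched on both strands, exactly, and no matches overlapped each other in these windows. At least 1 match was present in 10 of the 26 genes (38.5%), compared with 231 of 6344 other tested genes with a window (3.6%) and 486 of all 27025 symbols in the table (1.8%). Of the 19 genes with a window that fell, 6 had a match (31.6%), and of the 7 that did not pass, 4 had a match (57.1%). The letters CCAAT were in 15 of the 26 genes (57.7%) and in 43.1% of other tested genes, and the letters TTTGAA in 5 of 26 (19.2%) and 13.4%. A match describes letters in the window and is not evidence of binding.

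Of the genes with a match before the start, the stretches of 80 bases below set Cdc6 and Mcm6, which fell, beside Mcm5, Gins3 and Pola1, which did not pass. Capitals mark the E2F-type words on either strand, and each sequence is given 5′ to 3′ on the strand of its gene. Cdc6 lies at chr11:98907977-98908056 on the plus strand, Mcm6 at chr1:128359741-128359820 on the minus strand, Mcm5 at chr8:75109324-75109403 on the plus strand, Gins3 at chr8:95633479-95633558 on the plus strand and Pola1 at chrX:93632250-93632329 on the minus strand, all in GRCm38.p6 and upstream of the annotated start.
Cdc6: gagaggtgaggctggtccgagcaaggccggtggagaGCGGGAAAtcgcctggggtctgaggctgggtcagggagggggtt
Mcm6: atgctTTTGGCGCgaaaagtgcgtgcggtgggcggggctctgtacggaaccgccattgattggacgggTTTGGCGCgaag
Mcm5: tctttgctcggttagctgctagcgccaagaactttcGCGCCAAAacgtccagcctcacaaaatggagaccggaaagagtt
Gins3: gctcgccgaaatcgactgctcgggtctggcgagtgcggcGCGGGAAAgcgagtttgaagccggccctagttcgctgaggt
Pola1: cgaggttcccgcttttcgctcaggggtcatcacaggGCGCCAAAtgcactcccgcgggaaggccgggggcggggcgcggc
Mcm6 had 2 matches and the other 4 genes had 1 each.

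**Figure D2:**
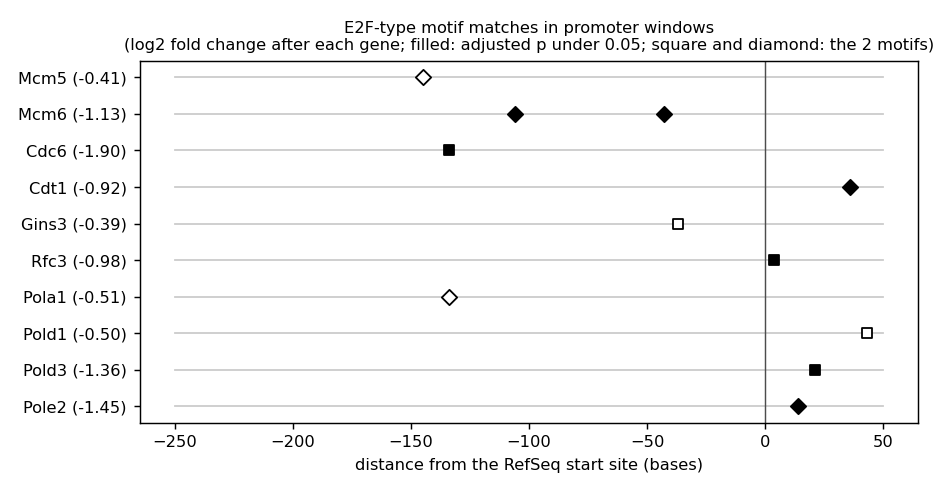
Distance in bases from the RefSeq start site to the centre of each E2F-type match in the promoter windows of measured replication genes, with the log2 fold change after each name. Filled symbols are genes that fell and open symbols genes that did not pass; squares are TTTCCCGC and diamonds TTTGGCGC, and both kinds of symbol occur on either side of the start site.

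The MCM genes encode the 6-subunit ring that unwinds DNA, and 4 of the 6 were measured. Mcm6 had 48.9 and 66.0 FPKM in Exosc3-depleted cells, against 114 and 137 FPKM in Exosc3-present cells (log2 -1.13, SE 0.21, adjusted p = 0.00536). Mcm4 had 16.2 and 26.3 FPKM in Exosc3-depleted cells, against 39.8 and 44.9 FPKM in Exosc3-present cells (log2 -1.02, SE 0.25, adjusted p = 0.0163). Mcm2 fell less, with 49.1 and 44.1 FPKM in Exosc3-depleted cells, against 68.8 and 72.6 FPKM in Exosc3-present cells (log2 -0.60, SE 0.16, adjusted p = 0.0244). For these 3 genes both Exosc3-depleted libraries lay below both Exosc3-present libraries, as in 50.9% of all tested rows. On the log2 scale the Exosc3-depleted libraries of Mcm4 stood furthest apart (0.69, compared with 0.43 for Mcm6). Mcm5, the most abundant of the replication genes per length, had 150 and 126 FPKM in Exosc3-depleted cells, against 183 and 182 FPKM in Exosc3-present cells, and did not pass (log2 -0.41, 95% interval -0.80 to -0.01, adjusted p = 0.0874). Its sign turned to log2 0.03 with quantile normalization, and over the 15 alternative settings Mcm2 was called in 9, Mcm4 in 12 and Mcm6 in 15. The ratio of Mcm6 to Mcm5 was 0.326 and 0.522 in Exosc3-depleted cells, against 0.619 and 0.756 in Exosc3-present cells; with 2 libraries a group this difference between subunits was not tested.

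ORC marks origins before the ring is loaded, and neither of its 2 measured genes passed. Orc2 had 7.85 and 12.7 FPKM in Exosc3-depleted cells, against 8.72 and 9.46 FPKM in Exosc3-present cells (log2 0.13, 95% interval -0.46 to 0.72, adjusted p = 0.698). Its Exosc3-depleted libraries lay on either side of the Exosc3-present pair, and its log2 fold change was 0.46 with Exosc3-depleted replicate 1 left out and -0.20 with replicate 2 of that group left out. Orc6, the smallest ORC subunit, had 18.9 and 19.9 FPKM in Exosc3-depleted cells, against 25.1 and 29.1 FPKM in Exosc3-present cells (log2 -0.47, adjusted p = 0.0655). Of the pair, 1 was lower at an unadjusted p under 0.05, and limma-voom called 0. Of all 9336 rows 4801 were under 0.05 unadjusted in either direction, and limma-voom called 19.6% of all rows lower. Orc2 was the only measured replication gene with a positive log2 fold change.

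All 3 genes around MCM loading fell, while 30.1% of all tested rows did. Cdc6 and Gmnn had the largest changes of the 32. Cdc6, the ATPase that helps ORC to load MCM, had 2.71 and 2.98 FPKM in Exosc3-depleted cells, against 11 and 13 FPKM in Exosc3-present cells. It stood at 23.7% of its Exosc3-present level (log2 -1.90, SE 0.19, adjusted p = 0.000643). Gmnn had 9.99 and 11.8 FPKM in Exosc3-depleted cells, against 36.7 and 44.0 FPKM in Exosc3-present cells, or 27.0% of that level (log2 -1.84, SE 0.19, adjusted p = 0.000682). Cdt1, which geminin inhibits, had 55.3 and 41.2 FPKM in Exosc3-depleted cells, against 87.6 and 94.2 FPKM in Exosc3-present cells (log2 -0.92, SE 0.19, adjusted p = 0.00918). The groups did not overlap for any of the 3, with the Exosc3-depleted libraries lower, as in 50.9% of all tested rows. Within libraries, the ratio of Gmnn to Cdt1 was 0.181 and 0.286 in Exosc3-depleted cells, against 0.418 and 0.467 in Exosc3-present cells, a difference that was not tested. Cdc6 and Gmnn were called in all 15 alternatives, and Cdt1 in 13.

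All 3 firing genes fell, while 30.1% of all tested rows did. Mcm10, which is not part of the MCM ring and helps to activate it, had 10.3 and 12.8 FPKM in Exosc3-depleted cells, against 30.4 and 34.7 FPKM in Exosc3-present cells (log2 -1.46, SE 0.19, adjusted p = 0.00154). Dbf4, the activating subunit of the Cdc7 kinase, had 7.72 and 14.0 FPKM in Exosc3-depleted cells, against 22.6 and 24.6 FPKM in Exosc3-present cells (log2 -1.14, adjusted p = 0.0157). Cdc7 was the scarcer partner per length, at 1.37 and 2.63 FPKM in Exosc3-depleted cells, against 3.96 and 3.87 FPKM in Exosc3-present cells (log2 -0.87, adjusted p = 0.0366). No gene of the 3 overlapped between groups, with the Exosc3-depleted libraries lower, as in 50.9% of all tested rows. On the log2 scale the Exosc3-depleted libraries of Dbf4 (0.81) and Cdc7 (0.74) were further apart than those of Mcm10 (0.31). The ratio of Dbf4 to Cdc7 was 5.62 and 5.30 in Exosc3-depleted cells, against 5.71 and 6.35 in Exosc3-present cells. Mcm10 was called in all 15 alternatives, Dbf4 in 14 and Cdc7 in 10.

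GINS bridges the MCM ring and polymerase epsilon, and 2 of its 3 measured genes fell, while 30.1% of all tested rows did. Gins1 had 4.42 and 5.17 FPKM in Exosc3-depleted cells, against 11.1 and 12.3 FPKM in Exosc3-present cells (log2 -1.2, SE 0.19, adjusted p = 0.0029). Gins4 had 22.3 and 24.6 FPKM in Exosc3-depleted cells, against 49.2 and 47.3 FPKM in Exosc3-present cells (log2 -1.03, SE 0.17, adjusted p = 0.00336). Both were called in all 15 alternatives. Gins3, the lowest of the 32 genes per length, had 1.2 and 2.33 FPKM in Exosc3-depleted cells, against 2.34 and 2.40 FPKM in Exosc3-present cells, so that only Exosc3-depleted replicate 1 stood clearly below (log2 -0.39, 95% interval -1.01 to 0.23, adjusted p = 0.27). Gins3 rested on 55 fragments in Exosc3-depleted replicate 1, the fewest of any replication gene in any library.

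The clamp gene and all 4 measured clamp loader genes fell, while 30.1% of all tested rows did. Pcna, whose product is the ring that tethers polymerases to DNA, had 41.9 and 42.6 FPKM in Exosc3-depleted cells, against 112 and 121 FPKM in Exosc3-present cells (log2 -1.45, SE 0.16, adjusted p = 0.000857). Replicates of Pcna were close in both groups. Among loader subunits, Rfc2 had 27.1 and 23.7 FPKM in Exosc3-depleted cells, against 53.6 and 48.0 FPKM in Exosc3-present cells (log2 -0.99, adjusted p = 0.0046), and Rfc3 had 10.3 and 12.0 FPKM in Exosc3-depleted cells, against 21.0 and 23.8 FPKM in Exosc3-present cells (log2 -0.98, adjusted p = 0.00578). The large subunit gene Rfc1 fell by 0.84 on the log2 scale (adjusted p = 0.0362) and Rfc5, the most abundant loader gene per length, by 0.63 (adjusted p = 0.0164). None of the 5 overlapped between groups, with the Exosc3-depleted libraries lower, as in 50.9% of all tested rows. The ratio of Pcna to Rfc5 was 0.589 and 0.584 in Exosc3-depleted cells, against 0.980 and 1.10 in Exosc3-present cells. Pcna fell most and Rfc5 least of the 5 genes, so the direction of this ratio follows from their fold changes. It was not tested. Pcna was called in all 15 alternatives, Rfc2 and Rfc3 in 14, Rfc5 in 9 and Rfc1 in 8.

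Of 7 measured polymerase and primase genes, 3 fell and 4 did not pass, while 30.1% of all tested rows fell. All 7 fold changes were negative, as were those of 66.6% of all rows. The 3 genes that fell encode accessory subunits, and the difference between them and the other 4 genes was not tested. Pole2, the second subunit of the leading-strand polymerase epsilon, had 3.78 and 5.76 FPKM in Exosc3-depleted cells, against 13.0 and 14.2 FPKM in Exosc3-present cells (log2 -1.45, SE 0.23, adjusted p = 0.00318). Pold3, an accessory subunit of polymerase delta, had 3.12 and 5.01 FPKM in Exosc3-depleted cells, against 10.4 and 11.6 FPKM in Exosc3-present cells (log2 -1.36, SE 0.24, adjusted p = 0.00491). Pola2, the regulatory subunit of polymerase alpha, had 17.0 and 14.8 FPKM in Exosc3-depleted cells, against 36.6 and 42.4 FPKM in Exosc3-present cells (log2 -1.28, SE 0.18, adjusted p = 0.00202). These 3 were called in all 11 alternatives that left no library out. Their groups did not overlap, with the Exosc3-depleted libraries lower, as in 50.9% of all tested rows.

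The catalytic polymerase genes and the catalytic primase gene were lower on average but did not pass. Pole had 15.4 and 23.9 FPKM in Exosc3-depleted cells, against 25.3 and 32.7 FPKM in Exosc3-present cells (log2 -0.57, 95% interval -1.17 to 0.02, adjusted p = 0.108). Pold1 had 43.9 and 33.3 FPKM in Exosc3-depleted cells, against 53.0 and 55.7 FPKM in Exosc3-present cells (log2 -0.50, 95% interval -0.95 to -0.05, adjusted p = 0.072). Pola1 had 3.05 and 4.77 FPKM in Exosc3-depleted cells, against 4.70 and 6.81 FPKM in Exosc3-present cells (log2 -0.51, 95% interval -1.15 to 0.12, adjusted p = 0.166). Prim1 was at log2 -0.64 (95% interval -1.19 to -0.09, adjusted p = 0.0624). Pola1 overlapped between groups. The other 3 had both Exosc3-depleted libraries below both Exosc3-present libraries, as in 50.9% of all tested rows. The ratio of Pole to Pole2 was 4.07 and 4.14 in Exosc3-depleted cells, against 1.94 and 2.31 in Exosc3-present cells, and that of Pold1 to Pold3 was 14.1 and 6.64 in Exosc3-depleted cells, against 5.09 and 4.81 in Exosc3-present cells. These ratios did not overlap between groups but were chosen after the values were seen and were not tested. With the replicate number as a block all 7 genes and 37.1% of all rows were called lower, although the labels do not tie the numbers to a shared culture.

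**Figure D3:**
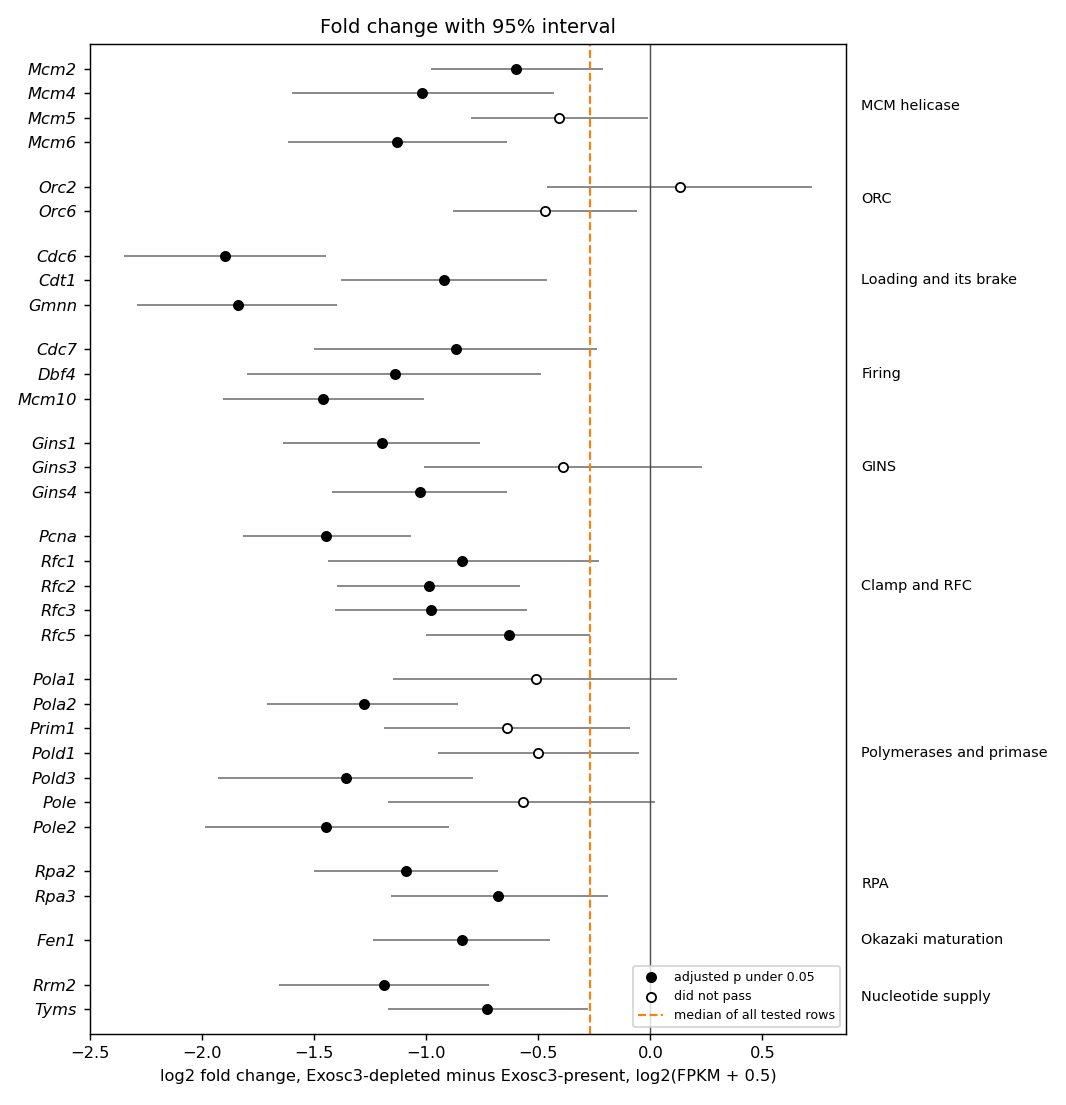
Log2 fold change (Exosc3-depleted minus Exosc3-present) of each measured gene with its 95% interval from limma; filled points passed at an adjusted p under 0.05. The dashed line is the median of all tested rows at -0.27; Orc2 is the only point right of 0, and Cdc6 and Gmnn lie furthest left.

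Genes for single-strand binding, Okazaki fragments and nucleotides also fell, as did 30.1% of all tested rows. Rpa2, the middle subunit of RPA, had 25.5 and 21.6 FPKM in Exosc3-depleted cells, against 50.2 and 50.7 FPKM in Exosc3-present cells (log2 -1.09, SE 0.17, adjusted p = 0.00311). The small subunit gene Rpa3 had 11.2 and 8.22 FPKM in Exosc3-depleted cells, against 15.1 and 16.3 FPKM in Exosc3-present cells (log2 -0.68, adjusted p = 0.0355). Fen1, the flap endonuclease that trims Okazaki fragments, had 20.6 and 18.9 FPKM in Exosc3-depleted cells, against 34.9 and 36.7 FPKM in Exosc3-present cells (log2 -0.84, adjusted p = 0.00725). No groups overlapped for these 3, with the Exosc3-depleted libraries lower, as in 50.9% of all tested rows. Rrm2, the S-phase subunit of ribonucleotide reductase, had 29.6 and 39.0 FPKM in Exosc3-depleted cells, against 72.0 and 84.6 FPKM in Exosc3-present cells (log2 -1.19, SE 0.20, adjusted p = 0.00385). Tyms, the thymidylate synthase, had 4.21 and 4.76 FPKM in Exosc3-depleted cells, against 8.2 and 7.29 FPKM in Exosc3-present cells (log2 -0.73, adjusted p = 0.0194). Both measured nucleotide genes were separated between groups, with the Exosc3-depleted libraries lower, again as in 50.9% of all tested rows. Rpa2 and Rrm2 were called in all 15 alternatives, Fen1 in 12, Tyms in 9 and Rpa3 in 8.

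The 12 genes called in every alternative were Mcm6, Cdc6, Gmnn, Mcm10, Gins1, Gins4, Pcna, Pola2, Pold3, Pole2, Rpa2 and Rrm2. The share of all rows called in every alternative was not counted, so the 12 have no such share to be read beside. Some calls depended on how libraries were scaled. With median-of-ratios scaling 17 genes were lower, with quantile normalization 18 and with scaling without the 50 highest rows 16, all among the 24, while the share of all rows called lower became 19.8%, 19.1% and 14.2%. Under these scalings 46.7%, 47.0% and 53.7% of all changed rows were higher, compared with 29.6% as reported. The median of the replication genes relative to the median row stayed between -0.65 and -0.58. Mcm2, Rfc1, Rfc5, Rpa3 and Tyms did not pass under any of the 3. Among larger falls, Mcm4 also lost the call with quantile normalization (log2 -0.63) and without the 50 highest rows (-0.68). Dbf4 (log2 -0.81) and Cdc7 (-0.58) lost it without the 50 highest rows. Cdt1 (log2 -0.68) and Fen1 (-0.6) lost it with median-of-ratios scaling. Rfc2 and Rfc3 kept theirs, and 14 of the 24 genes were called under all 3 scalings. The share of all rows called under all 3 was not counted either, so the 14 also have no share beside them.

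**Figure D4:**
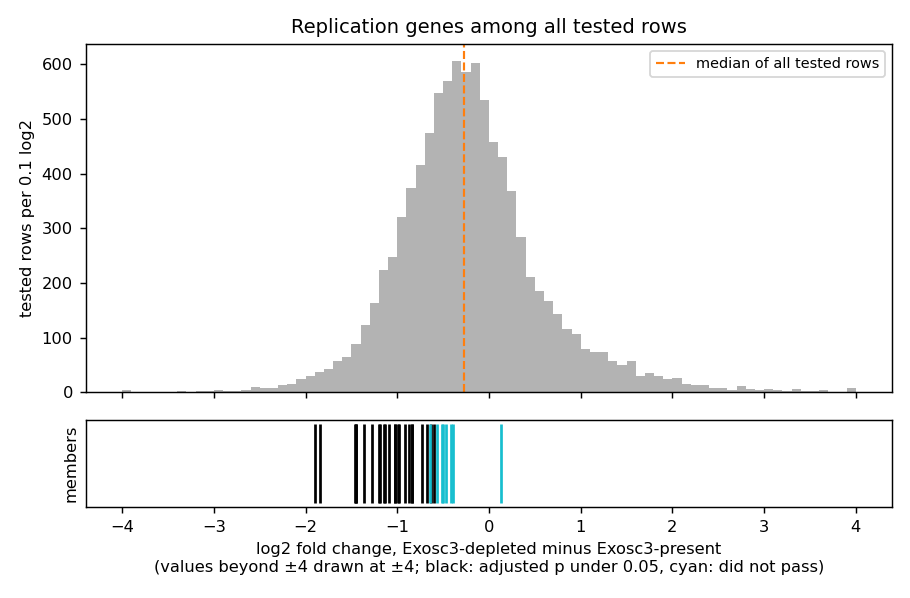
Number of tested rows per 0.1 step of log2 fold change (Exosc3-depleted minus Exosc3-present), with the replication genes as vertical lines below. The genes that passed (black) lie between -1.90 and -0.60, left of the median row at -0.27 (dashed).

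Single libraries also set the count. Leaving out an Exosc3-depleted library gave 27 (replicate 1 removed) and 29 (replicate 2 removed), when 40.6% and 50.5% of all rows were called lower. Leaving out an Exosc3-present library gave 16 (replicate 1 removed) and 14 (replicate 2 removed), when 14.6% and 11.6% of all rows were called lower. The count of replication genes thus moved in the same direction as that of all rows. Mcm2, Cdc7, Rfc1, Rfc5, Rpa3, Fen1 and Tyms did not pass without either Exosc3-present library, Rfc2 without replicate 1 of that group, and Mcm4, Cdt1 and Rfc3 without its replicate 2. Without Exosc3-depleted replicate 1, Mcm5 (log2 -0.53), Orc6 (-0.44) and Pold1 (-0.70) were also called lower and Orc2 higher (0.46). Without Exosc3-depleted replicate 2, Orc6 (-0.50), Gins3 (-0.76), Pola1 (-0.80), Prim1 (-0.91) and Pole (-0.88) were also called lower.

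The Exosc3-depleted pair was less alike than the Exosc3-present pair. Over all tested rows the SD of the log2 difference between replicates was 0.432 in Exosc3-depleted cells and 0.188 in Exosc3-present cells, and 26 of the 32 replication genes had the larger relative SD in Exosc3-depleted cells. Replicate 2 was above replicate 1 in 23 of the 32 genes in Exosc3-depleted cells and in 26 in Exosc3-present cells. The median log2 of replicate 2 over replicate 1 in Exosc3-depleted cells was 0.21 for the 32 genes and 0.09 for all tested rows. In Exosc3-present cells it was 0.12 and 0.07. Shares of all rows to set beside these counts of genes were not computed. Among the 32 genes, the log2 difference between the Exosc3-depleted replicates followed the span of the gene in GRCm38 (Spearman's rho 0.51; 0.49 over 8092 tested rows matched by symbol), as it did more weakly between the Exosc3-present replicates (0.31 and 0.26). The same difference between the Exosc3-depleted replicates followed the level in Exosc3-present cells in the opposite direction (rho -0.57 among the 32 genes), and that between the Exosc3-present replicates less so (-0.15). The fold change between groups showed no such order among the 32 genes (rho 0.02 against span, -0.12 against the level in Exosc3-present cells). These correlations are across genes, which share libraries and are not independent.

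The rest of the replication machinery was read from a list that holds none of the 32 genes. Of 25 tested genes in it 14 fell and 0 rose, compared with 30.1% and 12.6% of all rows (median log2 -0.75). Without adjustment 16 were lower and 0 higher at p under 0.05, when 4801 of all 9336 rows were under 0.05 in either direction. With limma-voom 8 were lower and 0 higher, when 19.6% of all rows were called lower. Tipin, a fork protection factor, had 34.1 and 30.7 FPKM in Exosc3-depleted cells, against 86.4 and 98.9 FPKM in Exosc3-present cells (log2 -1.5, adjusted p = 0.000955). Cdc45, the third part of the active helicase beside MCM and GINS, had 12.1 and 12.8 FPKM in Exosc3-depleted cells, against 25.5 and 26.3 FPKM in Exosc3-present cells (log2 -1.03, adjusted p = 0.00344). Rnaseh2a, the catalytic subunit of ribonuclease H2 (log2 -1.31, adjusted p = 0.0042), and Dna2, a nuclease and helicase (log2 -1.23, adjusted p = 0.00545), also fell. The members with positive values did not pass; they were Chtf8 (log2 0.20), Pold4 (0.20), Rnaseh2c (0.14), Rif1 (0.13) and Top1 (0.11). The number that fell was 6 and 4 when replicate 1 or replicate 2 of the Exosc3-present cells was left out, 9 with median-of-ratios scaling, 8 with quantile normalization and 5 with scaling without the 50 highest rows. The shares of all rows called lower in these settings were 14.6%, 11.6%, 19.8%, 19.1% and 14.2%, in the same order, so that 4 or 5 of 25 lay near the share of all rows. Chtf8 passed as higher with quantile normalization (log2 0.58), with scaling without the 50 highest rows (0.54) and without Exosc3-depleted replicate 2 (0.36). Without Exosc3-present replicate 2, Cdc45 did not pass (log2 -1.01).

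Of 10 tested genes of nucleotide supply outside the 32, 5 fell and 0 rose (30.1% and 12.6% of all rows), with a median of log2 -0.57. Unadjusted, 5 were lower and 0 higher, when 4801 of all 9336 rows were under 0.05 in either direction. With limma-voom 3 were lower and 0 higher, when 19.6% of all rows were called lower. Shmt1, which feeds one-carbon units to thymidylate synthesis, had 24.6 and 24.2 FPKM in Exosc3-depleted cells, against 60.5 and 65.2 FPKM in Exosc3-present cells (log2 -1.35, adjusted p = 0.00118). The deaminase Dctd (log2 -0.79), the guanylate kinase Guk1 (-1.10) and the nucleoside diphosphate kinase Nme1 (-0.65) fell, although Dctd and Nme1 did not pass under the 3 other scalings or without either Exosc3-present library. Guk1 did not pass with quantile normalization or without the 50 highest rows. Nme1 also lost its call with no filter on low values and with limma-voom. Of the 10 genes 2 were called with median-of-ratios scaling and 1 with quantile normalization or without the 50 highest rows, 2 and 3 when replicate 1 or replicate 2 of the Exosc3-present cells was left out, and 3 with no filter on low values. All rows called lower were 19.8% with median-of-ratios scaling, 19.1% with quantile normalization and 14.2% without the 50 highest rows, so that the list did not stand above all rows there. They were 14.6% and 11.6% without replicate 1 or replicate 2 of the Exosc3-present cells, and 18.7% with no filter. Rrm2b, the alternative small subunit of ribonucleotide reductase, was too low to be tested, at 0.308 and 0.433 FPKM in Exosc3-depleted cells, against 0.291 and 0.249 FPKM in Exosc3-present cells.

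Among genes that assemble chromatin behind the fork, most of those tested fell. Of 8 tested, 6 fell and 0 rose (30.1% and 12.6% of all rows), with a median of log2 -1.07. Unadjusted, 6 were lower and 0 higher, when 4801 of all 9336 rows were under 0.05 in either direction. With limma-voom 5 were lower and 0 higher, when 19.6% of all rows were called lower. Chaf1b, a subunit of chromatin assembly factor 1, had 13.6 and 12.5 FPKM in Exosc3-depleted cells, against 51.8 and 54.3 FPKM in Exosc3-present cells (log2 -1.98, adjusted p = 0.000383). Uhrf1, which brings Dnmt1 to newly copied DNA, had 28.5 and 32.5 FPKM in Exosc3-depleted cells, against 101 and 118 FPKM in Exosc3-present cells (log2 -1.82, adjusted p = 0.000567). Ssrp1, a subunit of the FACT histone chaperone (log2 -1.05), and Slbp, which binds histone mRNA stem loops (-1.09), fell, and neither passed with scaling without the 50 highest rows, when 2 of the 8 and 14.2% of all rows were called lower. The smallest changes were those of Hat1 (log2 -0.01) and Dnmt1 (-0.47), which did not pass.

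Most tested genes of the E2F and RB families fell, and only E2f6 rose. Of the RB family only Rbl1 had a row, while Rb1 and Rbl2 had none. Of 10 tested 7 fell and 1 rose, compared with 30.1% and 12.6% of all rows (median log2 -0.88). Unadjusted, 7 were lower and 1 higher, when 4801 of all 9336 rows were under 0.05 in either direction. With limma-voom 6 were lower and 1 higher, when 19.6% of all rows were called lower. The activator gene E2f2 had 0.260 and 0.241 FPKM in Exosc3-depleted cells, against 3.14 and 3.38 FPKM in Exosc3-present cells (log2 -2.32). E2f2 passed the filter on low values only through the Exosc3-present group, so its call is no independent result. The counts and the median of this list include it, so they follow in part from the filter. With the filter at a mean of 2 FPKM, E2f2 and Rbl1 were not tested. In that setting 5 genes of the list and 33.5% of all rows fell. E2f8, a repressor of the family, had 1.61 and 2.14 FPKM in Exosc3-depleted cells, against 8.52 and 9.03 FPKM in Exosc3-present cells (log2 -1.97, adjusted p = 0.000658). E2f1, another activator, had 3.01 and 2.61 FPKM in Exosc3-depleted cells, against 8.05 and 7.15 FPKM in Exosc3-present cells (log2 -1.29, adjusted p = 0.00239), and Rbl1, which encodes the RB relative p107, fell by 1.11 on the log2 scale (adjusted p = 0.00554). Both Exosc3-depleted libraries were below both Exosc3-present libraries for E2f8, E2f1 and Rbl1, as in 50.9% of all tested rows. E2f6, a repressor of the family that works without RB proteins, rose to 4.28 and 5.27 FPKM in Exosc3-depleted cells, against 2.94 and 2.95 FPKM in Exosc3-present cells (log2 0.61, adjusted p = 0.0409), a call that ended without either Exosc3-present library (log2 0.61 in each case) and with no filter on low values. Tfdp2, a dimer partner of E2F proteins, had a log2 fold change of 0.25 and did not pass; without Exosc3-depleted replicate 1 it passed as higher (log2 0.75), and without Exosc3-depleted replicate 2 its value was -0.25. With scaling without the 50 highest rows 4 of the 10 genes and 14.2% of all rows fell.

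**Figure D5:**
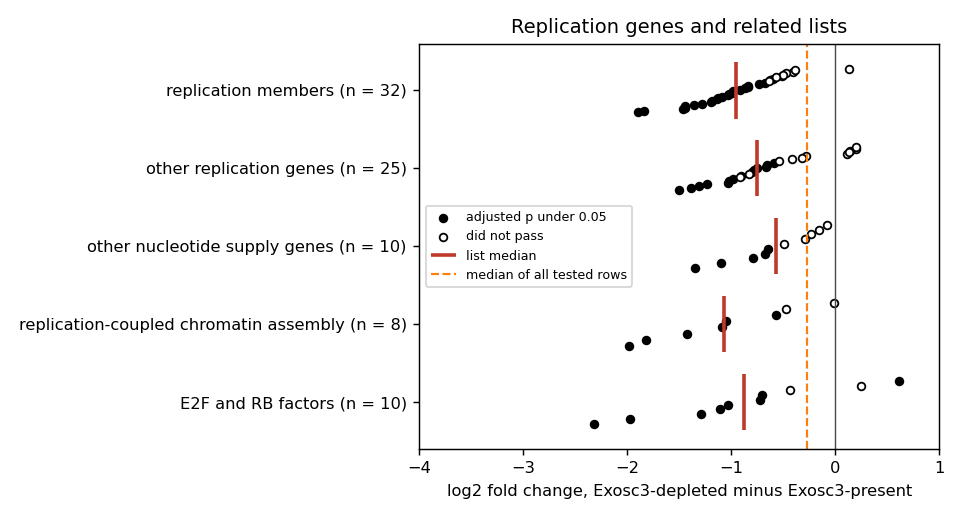
Log2 fold change (Exosc3-depleted minus Exosc3-present) of each tested gene in the replication list and in 4 related lists, spread vertically by rank; filled points passed at an adjusted p under 0.05. The red bar is the list median, between -1.07 and -0.57, and the dashed line is the median of all tested rows at -0.27.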

How the data were processed

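The authors deposited 1 table of FPKM values with a column for each library, per the file headers. Per the submitters' processing notes, edgeR, STAR, Bowtie2, bedtools and Picard were used and the build was mm9; no roles or versions are listed. The counting step and its use of strand are not given in the sources used here. Per the labels' protocols, ribosomal RNA was removed and the kit kept strand. Of the 32 measured genes 6 overlap exons of an antisense gene in GENCODE (Orc2, Orc6, Rfc2, Rfc5, Pole and Fen1), Pole2 overlaps Gm49384 on its own strand, and Pcna and Tyms have named pseudogenes, so reads of these genes could be shared.

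Dividing out model length and library total returned fragments, and all 12751 rows above 0 in every library gave whole fragments within 0.004 of a fragment. The 32 genes had medians of 1176 and 1509 fragments in the Exosc3-depleted libraries and 3724 and 3471.5 in the Exosc3-present libraries, so replicate spread, not counting, limits most values.

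Tests used log2(FPKM + 0.5) in limma 3.58.1 under R 4.3.3, two-sided, letting the variance follow the mean level. They covered the 9336 rows whose average reached 0.5 FPKM, with Benjamini-Hochberg adjustment over all of them and a threshold of 0.05. It was checked on simulated data. All 32 genes also passed the filter in the Exosc3-present libraries alone. Calls had 2 residual degrees of freedom beside a prior of 4.98.

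Genes and lists were chosen with earlier results of these data known, so counts over them are descriptions. Every listed gene is named; from other lists the 4 with the smallest p and those with a positive sign. Alternatives covered pseudocount, filter, scaling, trend, replicate block, each library left out and, added after seeing the data, limma-voom 3.58.1 on recovered fragments. Promoters are RefSeq sequences of GRCm38.p6; no mm9 coordinates were used.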

Additional observations from a re-analysis of the deposited data

How the results depend on the processing

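Over the 15 alternatives the 32 genes gave 480 values, of which 416 kept sign and side of the threshold, 48 lost the call, 14 gained it and 2 changed sign (Mcm5 at log2 0.03 with quantile normalization, Orc2 at -0.20 without Exosc3-depleted replicate 2). The pseudocount and the trend moved no count by over 1.5 times. With the stricter filter 667 rows were higher. Rows called lower, other replication genes called lower and the median of the 32 genes were 1848, 9 and -0.71 with median-of-ratios scaling, 1782, 8 and -0.63 with quantile normalization, 1330, 5 and -0.61 with scaling without the 50 highest rows, and 1829, 8 and -0.77 with limma-voom. The scalings differ by construction in the level they set for the median row; the cause of the other shifts was not tested. With 1 library left out, replication genes called lower ranged from 14 to 29 and called higher from 0 to 1, all rows called lower from 1082 to 4715 and higher from 668 to 2183, and other replication genes called lower from 4 to 20; a lone library is then assumed to vary like the other pair. Among single genes with a change of sign, the values with 1 library left out ranged from -0.20 to 0.46 for Orc2, from -0.38 to 0.61 for Top1, from -0.25 to 0.51 for Rif1, from -0.08 to 0.36 for Rnaseh2c and from -0.25 to 0.75 for Tfdp2. With the replicate number as a block 29 of the 32 genes, 17 other replication genes and 3468 rows were lower. Same-numbered libraries deviated together across genes (r = 0.244), but nothing in the labels ties a number to a shared culture. Gene models with few fragments, such as Gins3, and the spread of the Exosc3-depleted pair limit the smaller differences.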
